A study of Homo sapiens with 4 samples.

Results

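The genes described here encode the kinase GAK, its relatives AAK1 and BMP2K, the clathrin chains CLTA, CLTB and CLTC, and the AP2 adaptor subunits AP2A1, AP2B1, AP2M1 and AP2S1. They were chosen by name, and all 10 were found among the 60606 genes of the count table. RNA was measured in DaroR cells, LNCaP prostate cancer cells made resistant by long culture in the antiandrogen darolutamide. All 4 libraries came from this 1 resistant line, grown in RPMI1640 with serum. The paper states that the medium of DaroR cells contained darolutamide. In 2 libraries (siControl) the cells had been transfected with control siRNA, and in 2 (siLOC730101) with a pool of siRNAs against the long noncoding RNA LOC730101. The study asked which genes depend on LOC730101 in resistant cells and examined GAK as one of them. GAK was listed with its lower level after siLOC730101 already known, so that its difference between the groups is given as a description with no test. The other members were listed by family.

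Clathrin builds the coat of vesicles that carry receptors and other membrane proteins from the cell surface and from the trans-Golgi network. The heavy chain forms the legs of the triskelion, the light chains bind along those legs, and AP2 links the coat to the plasma membrane and to cargo. GAK joins a kinase domain to an auxilin-like part that recruits the chaperone HSC70, encoded by HSPA8, to take the coat apart. AAK1 and GAK can phosphorylate the medium chain of the adaptors, a step that promotes binding to cargo.

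The libraries held 39213498 to 53368158 counts, and 19349 genes passed the expression filter of edgeR. LOC730101, listed in the table as ENSG00000216775, had a normalized CPM (counts scaled to library size with TMM factors) of 47.4 and 50.6 in siControl and of 15.4 and 17.9 in siLOC730101 (log2 fold change -1.56). The prostate luminal markers, among them KLK3, KRT8 and KRT18, were all detected, at 334 to 2481 CPM. Of these 10, 0 had an edgeR adjusted p under 0.05, where 0.284% of all genes tested did. At an unadjusted p under 0.05 in edgeR there were 3, where 10.8% of all genes tested were. Of 12 markers of immune, endothelial, stromal, basal and neuroendocrine cells, 6 had no counts in any library (PTPRC, CD3E, COL1A2, KRT5, TP63 and CHGA). However, 3 passed the expression filter, with COL1A1 at 11.0 to 14.7 CPM, VWF at 5.79 to 9.44 CPM and SYP at 2.09 to 2.95 CPM over the libraries. The 12 together summed to 22.7 to 23.8 CPM in siControl and 18.9 to 22.1 CPM in siLOC730101. The library siLOC730101 replicate 2 stood apart for several of the genes below, and values without it are given with the counts over the 10 genes and the lists. The labels do not say whether the replicates were separate cultures, so that the p-values measure the spread between these libraries, which may be technical.

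GAK, on the minus strand of chromosome 4 from 849276 to 932373 (hg38), drew 9810 and 8235 counts with control siRNA against 5044 and 4786 with siLOC730101. This was a CPM of 181.5 and 175.9 in siControl and 123 and 126 in siLOC730101. Both knockdown libraries lay below both control libraries, with a gap between the groups far wider than the gap within either group. The mean was 179 ± 3.92 (SD, n = 2) with control siRNA against 124 ± 2.33 (SD, n = 2), and the log2 fold change was -0.52, with a standard error (SE) of 0.076. In bulk RNA, fewer cells with a transcript and less transcript per cell cannot be told apart.

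**Figure D1:**
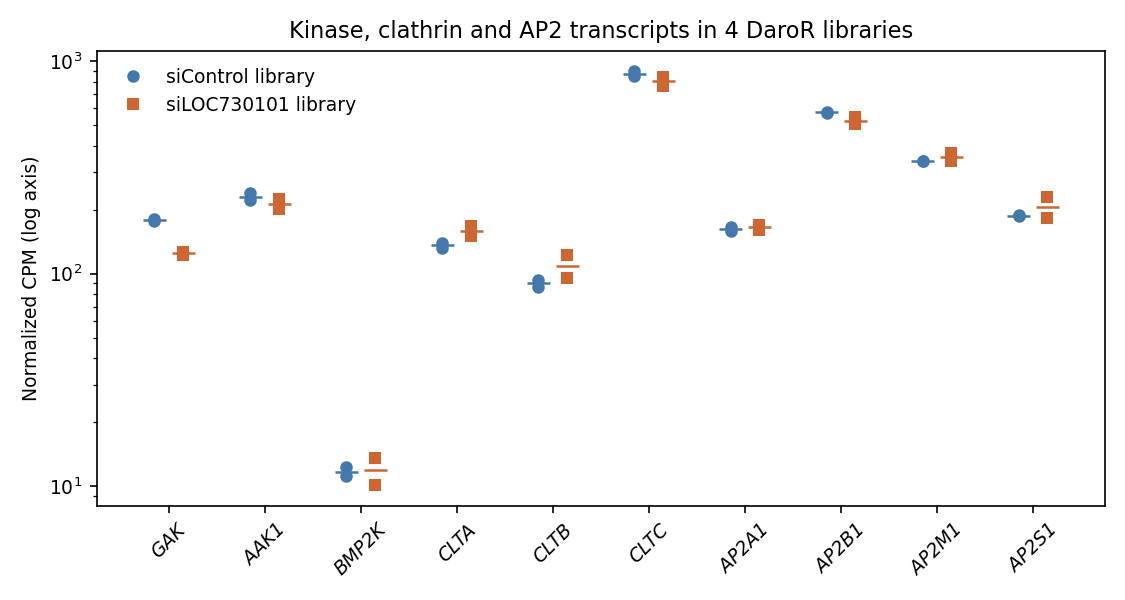
Normalized CPM (log axis) of the 10 genes in each library, with circles for siControl, squares for siLOC730101 and a short line at the mean of each pair. GAK is the gene whose pairs are widest apart, at 175.9 to 181.5 against 123 to 126 CPM, while the pairs of AAK1, BMP2K, AP2A1, AP2M1 and AP2S1 overlap.

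The study examined GAK as a target of the microRNA miR-1-3p, which was not measured in these libraries of polyadenylated RNA. For this reason the sequence of miR-1-3p (RefSeq, GRCh38.p14) is shown with its seed, bases 2 to 8, in capitals, followed by the matches found in the 3′ UTRs of the 10 genes. The search used 1 canonical transcript for each gene in a GRCh37 annotation, on the strand of the gene, and a match was ACATTCC (7mer-m8) or CATTCCA (7mer-A1), with both at once named an 8mer. The capitals mark the matched bases, and each stretch is read 5′ to 3′ along the transcript.
miR-1-3p: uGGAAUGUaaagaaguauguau
GAK: cacatgaagagaaagCATTCCA
CLTC: taaaaccttatttcACATTCCA
AP2B1: ctcaaagcaaactatCATTCCA
AAK1: catttccttacttaACATTCCc

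The GAK match was a 7mer-A1, the match to bases 2 to 7 followed by an A, at position 166 of a 3′ UTR of 396 bases (GRCh37 chr4:843289-843310). CLTC held an 8mer at position 176 of 3104 bases (GRCh37 chr17:57771374-57771395) and 1 further 7mer-A1. AP2B1 held 2 matches of the 7mer-A1 type in 2714 bases, of which the one at position 2068 is shown (GRCh37 chr17:34052771-34052792). AAK1, with a 3′ UTR of 17872 bases, held 2 matches of the 7mer-A1 type and the 7mer-m8 shown, the match to bases 2 to 8, at position 16154 (GRCh37 chr2:69686841-69686862). The search found no match of these types in BMP2K, CLTA, CLTB, AP2A1, AP2M1 and AP2S1. In all, 4 of the 10 genes held a match, compared with 22.2% of the 3′ UTRs of 13457 tested genes. Of the 10, only CLTC and AAK1 held an 8mer or 7mer-m8, compared with 13.2% of those 3′ UTRs. GAK and AP2B1 held matches of the 7mer-A1 type only.

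The 4 genes with a match, GAK, CLTC, AP2B1 and AAK1, were also the 4 with a log2 fold change below 0, as set out below. This was seen after the values were known and was not tested. GAK was listed with its lower level known and had been examined as a target of miR-1-3p, so it is not an independent case. CLTC, AP2B1 and AAK1 did not have an adjusted p under 0.05 (0.5505 to 0.656, edgeR). A longer 3′ UTR has more places where a match can fall. CLTC, AP2B1 and AAK1 have 3′ UTRs of 2714 to 17872 bases, but GAK held its match in 396 bases. The 6 genes without a match have 273 to 4332 bases, and BMP2K, at 4332, exceeds CLTC and AP2B1. The part of 3′ UTR length in these matches was not tested. The split of signs depended on the scaling and on single libraries. It held with TMM and DESeq2 size factors, but with upper-quartile factors or library size alone BMP2K and AP2A1 were also below 0, by 0.013 or less on the log2 scale. The number of the 10 genes below 0 was 6 without siControl replicate 1, 5 without siLOC730101 replicate 1 and 7 without siLOC730101 replicate 2. The genes that crossed 0 were BMP2K, AP2A1, AP2M1 and AP2S1. GAK, CLTC, AP2B1 and AAK1 stayed below 0 in all 14 alternative fits, which reuse the same libraries. Without siLOC730101 replicate 2, however, CLTC was at only -0.049, AP2B1 at -0.079 and AAK1 at -0.043. The log2 fold changes also followed exon length, as given below, and the part of that trend in this split was not tested.

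AAK1, on the minus strand of chromosome 2 from 69457997 to 69674349, is the relative of GAK that acts on AP2 at the cell surface. Its normalized CPM was 239 and 222 in siControl and 224 and 201 in siLOC730101. The groups overlapped, and the log2 fold change of -0.12 (SE 0.080) did not pass the threshold (adjusted p = 0.656, edgeR's quasi-likelihood test over all genes tested). BMP2K, also called BIKE, lies on the plus strand of chromosome 4 from 78776342 to 78916365, far from GAK. It was the least abundant member, at 385 to 602 counts in a library. Its CPM was 11.1 and 12.3 in siControl and 13.6 and 10.1 in siLOC730101, so that the knockdown pair spanned the control pair. The log2 fold change of BMP2K was 0.021 (SE 0.18, edgeR adjusted p = 0.987).

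The value of BMP2K has a limit of its own. Of its exon bases, 5639 (56.8%) are shared with PAQR3 on the opposite strand, and the counting command has neither a strand option nor an option to count a read for more than 1 gene. PAQR3 itself had 34.2 to 37.5 CPM over the 4 libraries and a log2 fold change of -0.012 (edgeR adjusted p = 0.989). CLTC and AP2A1 share at most 2.86% of their exon bases with the opposite-strand genes ENSG00000273702, PTRH2 and FUZ, none of which passed the threshold (adjusted p of 0.673 or more, edgeR). GAK shared no exon bases with another gene of the table.

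Among the clathrin chains, the light chains were higher and the heavy chain lower in the knockdown libraries, without passing the threshold. CLTA, light chain A, on the plus strand of chromosome 9 from 36190856 to 36304781, had a CPM of 139.8 and 131.8 in siControl and of 149.7 and 167 in siLOC730101. CLTB, light chain B, on the minus strand of chromosome 5 from 176392501 to 176416539, had 86.7 and 93.75 CPM in siControl and 95.1 and 123 CPM in siLOC730101. In both genes the knockdown libraries lay above the control libraries, and replicate 2 was the higher of the pair. The log2 fold changes were 0.22 for CLTA (SE 0.082, edgeR adjusted p = 0.295) and 0.27 for CLTB (SE 0.11, edgeR adjusted p = 0.332).

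CLTC, the heavy chain, lies on the plus strand of chromosome 17 from 59619684 to 59696956. It had the highest CPM of the members, a measure not scaled to gene length, with 893 and 846 in siControl and 842 and 762 in siLOC730101. The groups came close to each other, and the log2 fold change of -0.12 (SE 0.072) did not pass the threshold (edgeR adjusted p = 0.609). Per kilobase of exon and within a library, the light chains together amounted to 1.35 and 1.43 times the heavy chain in siControl and to 1.55 and 2.04 times in siLOC730101. The groups did not overlap, and the exact permutation test over the libraries gave its smallest possible two-sided p of 0.333. Per kilobase of canonical transcript, the siControl means were 126.0 for CLTA, 79.2 for CLTB and 103.9 for CLTC. The size of this ratio thus depends on the length used. The ratio of CLTB to CLTA was 0.795 and 0.911 in siControl against 0.814 and 0.938 after knockdown, a difference smaller than the spread within each group (exact permutation test, two-sided p = 0.667).

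The subunits of AP2 differed less than GAK. AP2A1, the alpha-A subunit, on the plus strand of chromosome 19 from 49767001 to 49807114, had a CPM of 159 and 166 in siControl and of 161 and 170.1 in siLOC730101, which gave a log2 fold change of 0.026 (SE 0.076, edgeR adjusted p = 0.9495). AP2B1, the beta subunit, which binds clathrin, lies on the plus strand of chromosome 17 from 35578046 to 35726413. It had 579 and 568 CPM in siControl and 544 and 506 CPM in siLOC730101, with both knockdown libraries the lower, and a log2 fold change of -0.13 (SE 0.071, edgeR adjusted p = 0.5505). AP2M1, the medium subunit that carries the phosphorylation site for AAK1 and GAK, lies on the plus strand of chromosome 3 from 184174689 to 184184214. Its CPM was 339.7 and 339.0 in siControl and 339.1 and 371 in siLOC730101, and the log2 fold change was 0.065 (SE 0.074, edgeR adjusted p = 0.823). Here replicate 1 of the knockdown sat at the control level and replicate 2 above it. AP2S1, the small subunit, on the minus strand of chromosome 19 from 46838136 to 46850846, showed the same picture, with 189 and 186 CPM in siControl and 183 and 229 CPM in siLOC730101 (log2 fold change 0.13, SE 0.094, edgeR adjusted p = 0.6635).

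Counted together, 1 of the 10 genes, GAK, had an adjusted p under 0.05, where 0.284% of all genes tested did, and GAK was listed for that difference. At an unadjusted p under 0.05, CLTA and CLTB joined it in edgeR's test, where 10.8% of all genes did. In 5 of the 10 genes both knockdown libraries lay on 1 side of both control libraries, GAK, CLTC and AP2B1 lower and CLTA and CLTB higher. This held for 41.7% of all genes tested. The median log2 fold change of the 10 genes was 0.024, close to that of all genes tested, -0.0021.

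The calls of the short genes turned on replicate 2 of the knockdown. Without siLOC730101 replicate 1, which leaves replicate 2 alone in its group, CLTA (log2 fold change 0.31, adjusted p = 0.00548), CLTB (0.45, adjusted p = 3.1e-05) and AP2S1 (0.30, adjusted p = 0.00548) passed the threshold in edgeR, as did 1195 of all genes. Without replicate 2 the log2 fold changes were 0.14 for CLTA, 0.074 for CLTB and -0.038 for AP2S1. Those of the long genes also came closer to 0 without replicate 2, at -0.043 for AAK1, -0.049 for CLTC and -0.079 for AP2B1. That of GAK was -0.54 without replicate 2 and -0.49 without replicate 1.

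**Figure D2:**
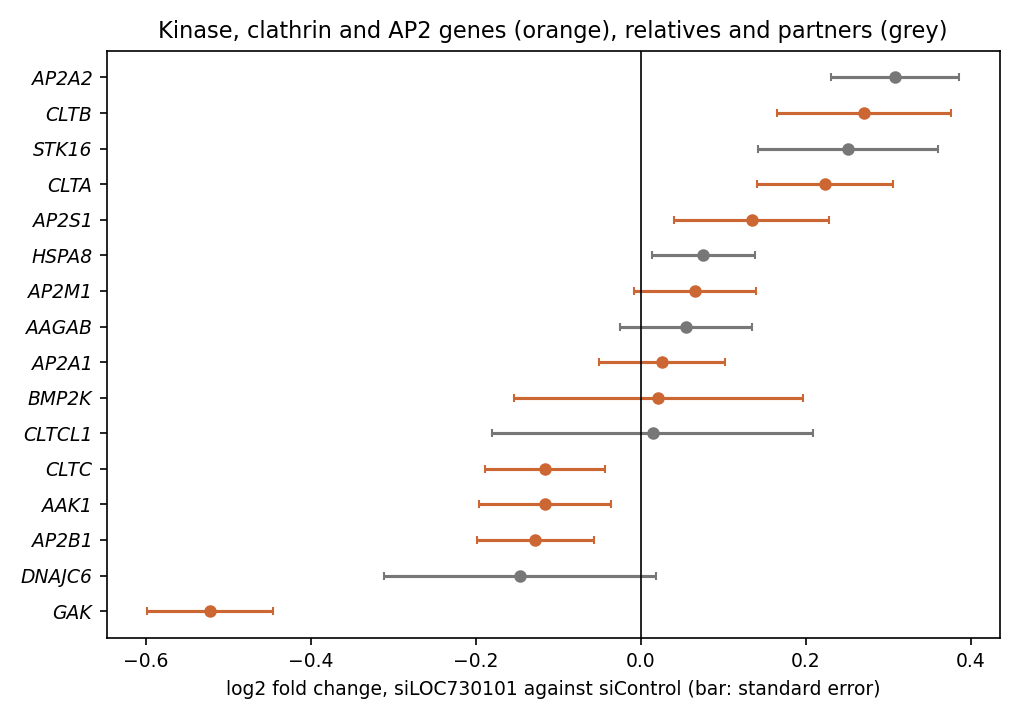
Log2 fold change of siLOC730101 against siControl, with the SE as a bar, for the 10 genes (orange) and for 6 close relatives or partners (grey). GAK lies at -0.52, and the other genes lie between -0.15 and 0.31.

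Close relatives and working partners of these genes were examined in the same fit. AP2A2, the alpha-C subunit that can take the place of AP2A1 in the complex, had the highest log2 fold change among them. Its CPM was 117 and 122 in siControl and 145 and 151 in siLOC730101, with both knockdown libraries above both control libraries. The log2 fold change of 0.31 (SE 0.078) did not pass the threshold (edgeR adjusted p = 0.116), but its adjusted p was 0.0145 with DESeq2, 0.0287 with no expression filter and 0.00592 with the replicate number as a block and 0.00184 without siLOC730101 replicate 1 (edgeR). Per kilobase of exon, the ratio of AP2A1 to AP2A2 within a library was 2.27 and 2.29 in siControl and 1.86 and 1.89 in siLOC730101, and the exact permutation test gave its smallest possible p of 0.333.

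HSPA8, the uncoating chaperone that works with GAK, had 2278 and 2346 CPM in siControl and 2396 and 2477 CPM in siLOC730101 (log2 fold change 0.076, edgeR adjusted p = 0.729). DNAJC6, the auxilin best known from neurons, had 12.9 to 16.1 CPM in siControl and 11.9 to 14.4 CPM in siLOC730101, so that the groups overlapped (log2 fold change -0.15, edgeR adjusted p = 0.822). The kinase STK16, also of the GAK family, had a log2 fold change of 0.25 (edgeR adjusted p = 0.413), and AAGAB, a chaperone for the assembly of AP2, of 0.054 (edgeR adjusted p = 0.880). CLTCL1, the other clathrin heavy chain gene, had 8.47 and 9.46 CPM in siControl and 7.67 and 10.5 CPM in siLOC730101, with a log2 fold change of 0.014 (edgeR adjusted p = 0.992). None of these 6 genes passed the threshold, where 0.284% of all genes tested did. Of the 6, AP2A2 and STK16 had an unadjusted p under 0.05 in edgeR, where 10.8% of all genes tested did. The log2 fold change of STK16 was 0.14 without siLOC730101 replicate 2.

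Genes were ordered by level per kilobase of the exons counted, because CPM is not scaled to gene length, and levels are given for siControl. AP2S1 was highest at 120.3 ± 1.61 (SD, n = 2) CPM per kilobase, followed by AP2B1 at 75.5 ± 0.955 and CLTC at 72.0 ± 2.77. CLTA was at 54.0 ± 2.23, AP2M1 at 50.6 ± 0.0787 and CLTB at 46.0 ± 2.54. AP2A1 was at 18.65 ± 0.593, GAK at 11.8 ± 0.258, AAK1 at 9.27 ± 0.478 and BMP2K at 1.18 ± 0.080. The listed coat and adaptor genes thus lay above the 3 kinases, but AP2A2, at 8.18 ± 0.229 (SD, n = 2), lay below GAK and AAK1, and CLTCL1, at 0.892 ± 0.0698 (SD, n = 2), below all 3. The libraries of neighbouring genes in this order did not overlap, although AP2B1 was only 1.05 times CLTC and CLTA only 1.07 times AP2M1. With the length of 1 canonical transcript in place of all exons, AP2B1, CLTC, CLTA and AP2M1 changed places, while AP2S1 stayed first and CLTB, AP2A1, GAK, AAK1 and BMP2K kept their order below them. Over the 4292 exon bases that BMP2K does not share with PAQR3, its level was 2.73 ± 0.19 (SD, n = 2), still below that of AAK1.

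In siLOC730101, GAK was at 8.21 ± 0.154 (SD, n = 2) and AAK1 at 8.55 ± 0.659 CPM per kilobase. The ratio of AAK1 to GAK within a library was 0.802 and 0.769 in siControl and 1.11 and 0.972 in siLOC730101, so that AAK1 lay above GAK in 1 of the 2 knockdown libraries. By the canonical transcript length, GAK was at 40.1 and AAK1 at 10.9 in siControl, a gap far wider than by exon length. Since GAK was listed for its difference, this ratio is a description.

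The genes next to GAK on chromosome 4 were compared with it. TMEM175, a lysosomal potassium channel gene on the plus strand, starts 14 bases beyond the end of GAK in the count table, so that the 2 genes are read away from a shared start region. In the RefSeq annotation (GRCh38.p14) the start sites lie 144 bases apart. The 300 bases around the GAK start (chr4:932267-932566) are shown on the GAK strand because both genes begin in them, with the stretch from the TMEM175 start to the GAK start in capitals.
GAK promoter: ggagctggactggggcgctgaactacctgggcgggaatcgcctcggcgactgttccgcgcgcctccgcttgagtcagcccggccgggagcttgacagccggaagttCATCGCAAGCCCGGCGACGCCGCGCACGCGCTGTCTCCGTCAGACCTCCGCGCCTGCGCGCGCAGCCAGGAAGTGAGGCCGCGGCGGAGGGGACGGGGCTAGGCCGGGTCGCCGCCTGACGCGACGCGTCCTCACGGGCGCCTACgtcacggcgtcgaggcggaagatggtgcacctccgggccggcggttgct

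This window held 47 CG dinucleotides, where the median of 27305 RefSeq promoter windows of the same length was 14. CCGGAA, the core of the sites of ETS factors, was found on either strand of it and of the windows of AAK1, CLTB and CLTC, 4 of the 9 member genes with a window, and of 17.6% of all windows. CCAAT was found in AP2A1, AP2S1 and CLTA (35.7% of all windows). TATAAA (11.95% of all windows) and the E2F-like TTTGGCGC or TTTCGCGC (1.18%) were found in 0 of the 9 windows. A match is a description of these letters and not a site.

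TMEM175 had a CPM of 54.0 and 51.1 in siControl and of 50.4 and 52.8 in siLOC730101. The groups overlapped, and the log2 fold change was -0.028 (SE 0.093, edgeR adjusted p = 0.955). On the other side of GAK, CPLX1, a complexin gene 23.1 kb away, had a log2 fold change of 0.25 (SE 0.13, edgeR adjusted p = 0.532). DGKQ, a diacylglycerol kinase gene 26.5 kb away beyond TMEM175, had a log2 fold change of 0.14 (SE 0.075, edgeR adjusted p = 0.543). Of 8 genes within 123.9 kb on both sides, 0 had an adjusted p under 0.05 in edgeR, where 0.284% of all genes tested did. At an unadjusted p under 0.05 there were also 0, where 10.8% of all genes tested were. Their log2 fold changes ran from -0.028 to 0.25. DESeq2 called 0 of them as well, and 1.59% of all genes. At such shares, 0 of 8 genes does not set these genes apart from others. The difference between GAK and TMEM175 itself was not tested.

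**Figure D3:**
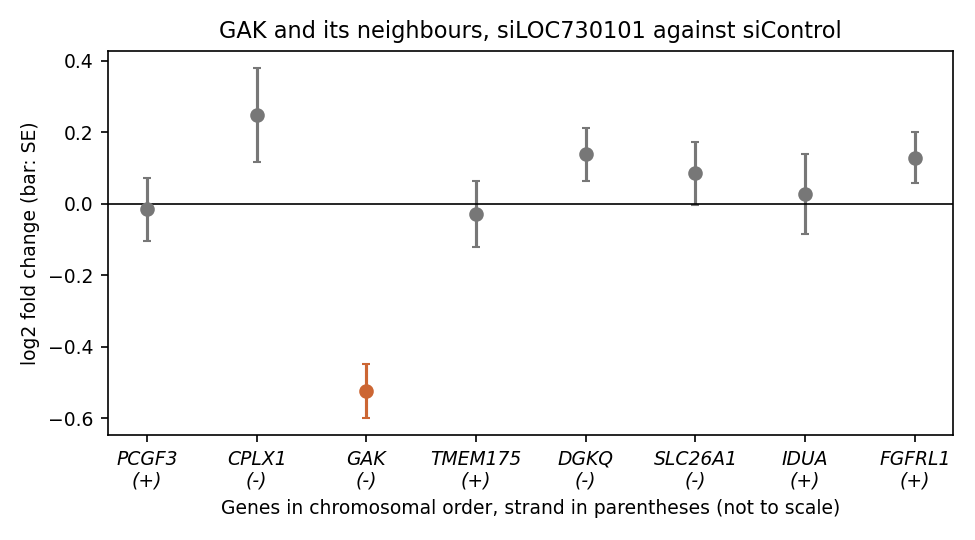
Log2 fold change of GAK (orange) and of 7 genes around it (grey) in chromosomal order, with the SE as a bar; RNF212, with 13 to 24 counts in a library, is left out. GAK lies at -0.52 and its neighbours between -0.028 and 0.25.

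The log2 fold changes of the 10 genes were ordered much as their exon lengths. The shortest, AP2S1, CLTB and CLTA with 1558 to 2515 exon bases, lay at 0.13 to 0.27, while CLTC, GAK and AAK1 with 12073 to 24843 bases lay at -0.52 to -0.12. Spearman's rho between exon length and log2 fold change was -0.82 over the 10 genes and -0.78 without GAK. Over 14230 genes with a mean normalized count above 50 it was -0.20. These values are descriptions across genes measured in the same libraries, and genes are not replicates. Without siLOC730101 replicate 2 rho was -0.45 over the 10 genes and -0.050 over all, whereas it was -0.89 and -0.27 without replicate 1. The part of this trend in the values of the light chains and AP2S1 was not tested.

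**Figure D4:**
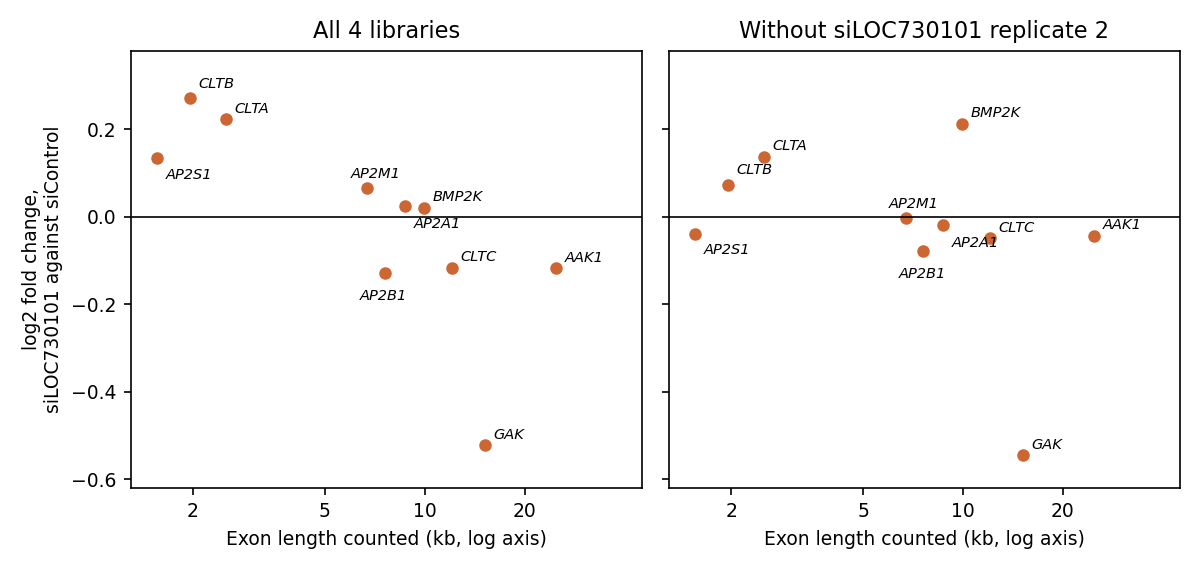
Log2 fold change of the 10 genes against the exon length counted for each gene (kb, log axis), with all 4 libraries and without siLOC730101 replicate 2. Without that library CLTB, CLTA and AP2S1 come down to between -0.038 and 0.14, while GAK stays at -0.54.

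Other genes of the clathrin pathway were taken from lists drawn up by function. Among the initiators and adaptors of endocytic pits, 25 of 26 listed genes were tested, 9 of them lower and 16 higher after siLOC730101, with a median log2 fold change of 0.042. STON1, a stonin, had the largest difference among those with a mean normalized count above 50 (log2 fold change -0.65, SE 0.43, edgeR adjusted p = 0.638). Among the genes of scission and uncoating, 24 of 25 were tested, 8 lower and 16 higher, with a median of 0.060. The dynamin genes DNM3 (-0.36, edgeR adjusted p = 0.614) and DNM1 (0.35, edgeR adjusted p = 0.518) had the largest differences in that list among genes with a mean normalized count above 50, in opposite directions. Leaving out 1 library moved STON1 to -0.26 (siControl replicate 1) and DNM1 to 0.14 (siLOC730101 replicate 1).

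At the trans-Golgi network, where GAK also acts, 15 genes of AP1, the GGA adaptors and their partners were tested, 8 lower and 7 higher, with a median log2 fold change of -0.0086. AP1S1, a small subunit of AP1, had 211 and 233 CPM in siControl and 240.1 and 309.9 CPM in siLOC730101, so that replicate 2 of the knockdown again lay highest. Its log2 fold change was 0.31 (SE 0.10, edgeR adjusted p = 0.235), which was 0.11 without replicate 2 and 0.49 without replicate 1. AP1S2, another small subunit of AP1, had a log2 fold change of -0.24 (edgeR adjusted p = 0.746). In the AP3, AP4 and AP5 complexes, which work largely without clathrin or with other coats, 10 of 15 genes were lower and the median was -0.035. AP3B2 (-0.32, edgeR adjusted p = 0.787) and AP4B1 (-0.24, edgeR adjusted p = 0.673) had the largest differences in it above that count. These rested on single libraries, since AP4B1 was at -0.0027 without siControl replicate 2 and AP3B2 at -0.17 without siLOC730101 replicate 2. AP1S2 was at -0.11 without that knockdown library.

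Of 20 cargo receptors, 19 were tested, 10 lower and 9 higher, with a median log2 fold change of -0.0043. SORL1, a sorting receptor, was at 83.3 and 86.2 CPM in siControl and 77.6 and 67.3 CPM in siLOC730101 (log2 fold change -0.22, edgeR adjusted p = 0.363), and LRP8, a receptor of the LDL receptor family, had 0.22 (edgeR adjusted p = 0.596). SORL1 was at -0.13 without siLOC730101 replicate 2, and LRP8 at 0.074 without siControl replicate 2 and 0.39 without siControl replicate 1. Over these 5 lists, edgeR put 0 genes below an adjusted p of 0.05, where 0.284% of all genes tested were. It did call AP1S1 with no expression filter (adjusted p = 0.014) and with the replicate block (adjusted p = 0.0031), and AP1S1, SORL1, NECAP1 and SH3GL1 without siLOC730101 replicate 1. At an unadjusted p under 0.05 there were 1 among the pit adaptors, 2 in scission and uncoating, 1 in AP1 and GGA, 0 in AP3 to AP5 and 2 among the receptors, where 10.8% of all genes tested were. DESeq2 called 0 genes in each of the 5 lists, and 1.59% of all genes.

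**Figure D5:**
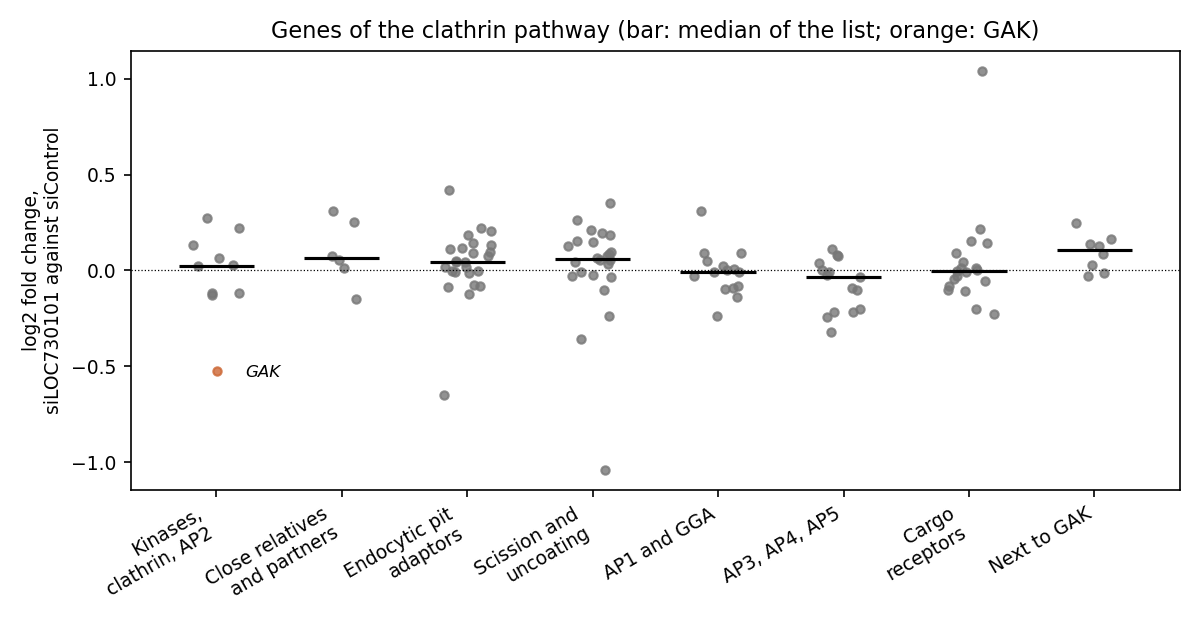
Log2 fold change of every tested gene in the 10 genes, in their close relatives and partners, in 5 lists of the clathrin pathway and among the genes next to GAK; the bar is the median of the list. GAK (orange) lies at -0.52, several of the widest points are genes with low counts that the text does not name, and the medians lie between -0.035 and 0.11.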

How the data were processed

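The authors extracted RNA with a Qiagen kit, had polyadenylated RNA sequenced, trimmed and aligned the reads, and deposited 1 table of raw counts per gene made with featureCounts 2.0.1; the table also gives the exon length of each gene. Its header names hg38 and gencode 41, whereas the methods name an earlier build, and the aligner is STAR in the methods and BWA in the submitters' processing notes. The command has no strand or paired-end option. Between 66.0% and 70.1% of values from 1 to 20 counts were even, so mates may be counted apart.

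Counts were tested in R 4.3.3 with edgeR 4.0.16 (filterByExpr, TMM factors, legacy quasi-likelihood fit, condition as the only term), with Benjamini-Hochberg adjustment over all 19349 genes tested. Standard errors are from the coefficient and its F statistic. CPM values use the TMM-scaled counts of the tested genes. DESeq2 1.42.0, other scalings and filters, other quasi-likelihood settings, halved counts, a replicate block and leaving out each library were alternatives. Ratios were compared by exact permutation (scipy 1.17.1). The code was tested on simulated data.

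The genes and the lists were chosen with earlier results of these data known. Named in the text are the 10 genes, their relatives and partners, genes overlapping them, in each other list the genes with an adjusted p under 0.05 (up to 3) and the 2 with the largest absolute log2 fold change above a mean normalized count of 50, and the 3 genes closest to GAK in profile. Some genes that this rule or the marker lists name are not reported here. Other genes, such as NECAP1 and SH3GL1, were named after their values were seen. Matches in 3′ UTRs were sought in GENCODE 44 transcripts on GRCh37, without converting coordinates; RefSeq windows and miRNAs are on GRCh38.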

Additional observations from a re-analysis of the deposited data

How the results depend on the processing

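The log2 fold change of GAK, which was listed for it, ran from -0.56 to -0.49 over the 14 alternatives. The number of the 10 genes with an adjusted p under 0.05 was 1 in all alternatives except without siLOC730101 replicate 1; leaving out each library in turn gave 1 to 4, with CLTA, CLTB and AP2S1 added in a fit that called 5.56% of 21482 genes. Among relatives and partners, AP2A2 was 1 called gene with no filter, with DESeq2 and with the replicate block, and the count was 0 to 1 with each library left out. AP1S1 was likewise 1 called gene of AP1 and GGA with no filter and with the block, and the count was 0 to 1 with each library left out. Leaving out each library also gave 0 to 1 for pit adaptors (NECAP1), scission and uncoating (SH3GL1) and receptors (SORL1). Each of these single calls appeared without siLOC730101 replicate 1, where the lone library is assumed to vary like the controls.

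Over all genes, the count of 55 became 93 with library size only, 437 with no filter, 173 with a mean normalized count above 50, 308 with DESeq2, 652 with the replicate block, 111 with the legacy method off and 148 with halved counts. It was 137 to 1195 with each library left out, highest without siLOC730101 replicate 1. The same-numbered libraries deviated together with a correlation of 0.040. The labels do not say whether they share anything beyond the number, so the paired fit is not read as a design.

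Directions near 0 changed. With upper-quartile factors BMP2K was at -0.0078, AP2A1 at -0.0053 and CLTCL1 at -0.018. With library size only they were at -0.013, -0.012 and -0.026, and PTRH2 at -0.0060. CLTCL1 was at -0.0023 with a mean normalized count above 50. With each library left out, BMP2K ran from -0.20 to 0.21, AP2A1 from -0.018 to 0.075, AP2M1 from -0.0037 to 0.14, AP2S1 from -0.038 to 0.30, CLTCL1 from -0.23 to 0.23 and DNAJC6 from -0.29 to 0.022. The overlapping genes ran from -0.074 to 0.058 (PAQR3), -0.036 to 0.50 (ENSG00000273702), -0.057 to 0.13 (PTRH2) and -0.016 to 0.13 (FUZ).

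With the canonical transcript length, an alternative chosen after seeing the data, 6 of the 10 genes kept their place in the order of levels. At 2 libraries in a group, small differences such as those of AAK1 or CLTC were not detectable here and are not shown to be absent.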

Other observations

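Profiles over the 4 libraries were compared by the Euclidean distance between log2 values of CPM plus a small constant, centred on each gene's mean. The genes closest to GAK were sought among those with a mean normalized count above 50. They were ENSG00000247903, a gene listed without a symbol, at a distance of 0.0157, RPSAP58, a ribosomal protein pseudogene, at 0.0271, and UNC13C, a synaptic vesicle priming gene, at 0.0370. RPSAP58 had 54.5 and 53.8 CPM in siControl and 36.7 and 37.5 CPM in siLOC730101, and its counts are uncertain because it is a copy of RPSA. UNC13C had 10.9 and 10.3 CPM in siControl and 7.28 and 7.38 CPM in siLOC730101. ENSG00000247903 rested on 83 and 68 control counts against 36 and 35. Its fitted log2 fold change was -0.73 (SE 0.46), against -0.52 for GAK. At its low CPM the added constant brings its profile nearer to that of GAK. Since they were chosen for this pattern, no test of it is given.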
